A study of Mus musculus with 14 samples.

Results

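Ribosome-bound RNA was set against total RNA in the testes of Adad2 mutant mice at 21 days post-partum (dpp). The 8 mutant libraries of the 14 in the series were taken, an immunoprecipitate (IP) and an input from each of 4 animals, numbered 12, 69, 93 and 94 in the sample titles, and IP was compared with input within the animal. All 4 animals were Adad2 M/M and carried Stra8-iCre and Rpl22HA, the RiboTag allele, on a C57BL/6 background, and the 6 remaining libraries came from 3 Adad2+/+ animals with the same Stra8-iCre and Rpl22HA alleles at the same age. The input is the RNA of the whole testis lysate before pull-down, and the IP is the RNA recovered with an antibody against the HA tag. The question that IP over input answers is how strongly each transcript of the mutant testis is represented on tagged ribosomes, and ADAD2 has been studied for a part in translation.

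RiboTag is a conditional allele that places an HA tag on RPL22, a protein of the large ribosomal subunit, in cells where Cre is active and in their descendants. Stra8-iCre becomes active in differentiating spermatogonia, so tagged ribosomes are expected in the germ line from that stage on and not in Sertoli, Leydig, peritubular, blood or immune cells. At the age sampled the tubules are rich in pachytene spermatocytes, whose messages include many that are made long before their protein is needed in spermatids. A ratio of IP to input depends both on the share of a transcript that lies in tagged cells and on the share of it bound to ribosomes there, and in whole testis these cannot be told apart, nor can fewer cells of a type and less RNA per cell.

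Adad2, which encodes a double-stranded RNA-binding protein of germ cells, lies on chromosome 8 at 119612747 to 119616924 (GRCm38) and was mutated in all 4 animals. Its level in CPM (counts scaled to a common library size with TMM factors) was 7.27, 7.06, 13.8 and 13.5 in the inputs of animals 12, 69, 93 and 94, and 12.0, 13.1, 10.1 and 7.20 in their IPs. Input and IP overlapped, with a log2 IP over input of 0.07 ± 0.52 (SE, 4 pairs, edgeR adjusted p = 0.927) that became -0.14 without animal 12, -0.18 without animal 69 and -0.61 without both. On a scale set over all 14 libraries, Adad2 stood at 30.7 to 35.9 CPM in the 3 wild-type inputs and at 102.5 to 112.8 CPM in the wild-type IPs, against 7.0 to 13.8 and 7.33 to 13.4 CPM in the mutants. The wild-type log2 ratio was 1.68 ± 0.36 (SE), and the mutant minus wild-type difference of the ratios was -1.57 ± 0.47 (SE, unadjusted p = 0.0082 and adjusted p = 0.997 in edgeR). Whether the reads lay inside or outside the mutated stretch was not tested.

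Mutant inputs held 22987974 to 30330450 expected counts and mutant IPs 26589188 to 30829048. Libraries of animals 12 and 69 held fewer annotated genes above 0 than those of the other 2 animals, at 16033 and 15446 in input against 21348 and 27021, and at 13206 and 12748 in IP against 15032 and 14913. Among 11019 protein-coding genes with a mean of at least 100 counts, 2640 (24%) fell below 10 counts in at least 1 of the 8 libraries, and 2369 of these were at 0 in at least 1. Counts given to assembled testis transcripts were not part of the gene counts, and their bearing on these zeros was not tested. Added spike-in RNA took 0.599% to 0.741% of input counts and 1.72% to 3.15% of IP counts, and the amount added was not given in the sources used here. Ratios are therefore relative to the other genes of a library, and the tests were also run without animals 12 and 69.

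Of 53337 annotated genes, 8770 had 10 or more counts in all 8 libraries and were tested, 8410 of them protein-coding. Another 3271 genes reached this count in all 4 inputs but not in all 4 IPs, and 766 in all 4 IPs but not in all 4 inputs, so the tested set lacks many genes that were low in the IP. Of the tested genes, 1792 were higher in IP and 1772 lower at an adjusted p under 0.05 in edgeR's quasi-likelihood test with the animal as a block. All 4 animals lay on the called side for 1763 of the former and 1731 of the latter. A 4-fold or larger difference was found for 186 of the genes higher in IP and for 493 of the genes lower in IP. Read against these totals, 20.4% of all tested genes were higher in IP, 20.2% lower and 40.6% either, and the median log2 ratio of all tested genes was -0.01. Without animals 12 and 69 more genes passed the filter, 11609 against 8770, and 2198 of them were higher and 2007 lower. The scale matters for this split. In TPM, the transcript levels that the authors scaled over all entries with 7SL RNA among them, the median log2 ratio of the tested genes was 1.27 with 0.1 added, and limma called 5220 genes higher and 257 lower, or 95.3% of calls higher against 50.3% in the main test. With 1 added it called 5285 and 267, and 1551 and 1371 once each library was centred on its median gene. All ratios given here are relative to the median gene.

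Among protein-coding genes with a mean log2 CPM of at least 5, the highest ratio belonged to Hist1h3h, a replication-dependent histone H3 gene, at 4.30 ± 0.28 (log2, SE). Esx1, an X-linked homeobox gene of testis and placenta, followed. Its level was 3.76, 6.22, 3.50 and 5.90 CPM in the inputs and 34.3, 96.8, 83.9 and 116 CPM in the IPs, without overlap (log2 4.01 ± 0.35, adjusted p = 6.06e-05). Rbmxl2, the germ cell retrogene of the splicing factor gene Rbmx, stood at 1.57 to 10.5 CPM in input and 26.2 to 119 CPM in IP (log2 3.43 ± 0.37). Rab11fip4, an effector of the endosomal GTPase RAB11, and Tsc22d3, a glucocorticoid-induced leucine zipper gene, had log2 ratios of 3.81 ± 0.92 and 3.74 ± 0.59. The input levels of both were below 5 CPM in animals 12 and 69 and above 12 CPM in animals 93 and 94, and the call of Rab11fip4 was lost without animal 12 (adjusted p = 0.071) and without animal 93 (adjusted p = 0.139) in edgeR.

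At the other end, Clu, a secreted chaperone and a Sertoli cell marker, read 449, 681, 639 and 587 CPM in input and 8.31, 10.6, 58.7 and 11.6 CPM in IP. The groups were far apart (log2 -5.25 ± 0.56, adjusted p = 0.00171), although the IP of animal 93 held more Clu than the other IPs and the edgeR adjusted p was 0.0695 without animals 12 and 69. Col4a1, a basement membrane collagen, had a log2 ratio of -5.09 ± 0.29. Serpina5, a serine protease inhibitor, was at -5.08 ± 0.31 and Tmsb4x, an actin-sequestering peptide gene, at -4.70 ± 0.30. Gstm2 (log2 -4.68 ± 0.28), a glutathione transferase gene, and Anxa2 (log2 -4.38 ± 0.41), an annexin gene, were of the same order. Phkg2, the testis-enriched catalytic subunit of phosphorylase kinase, gave 198, 320, 211 and 165 CPM in input and 6.54, 21.7, 8.34 and 7.54 CPM in IP (log2 -4.47 ± 0.24, adjusted p = 5.27e-06), again without overlap.

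Abundant structural RNAs and the messages of the mitochondrial genome were low in the IP. The 7SL RNA of the signal recognition particle took 15.45%, 14.94%, 15.15% and 13.42% of annotated counts in the inputs of animals 12, 69, 93 and 94, and 0.373%, 0.536%, 1.09% and 1.01% in their IPs. The 7SK RNA, which holds the elongation factor P-TEFb inactive in the nucleus, took 2.02% to 3.67% of input and 0.0306% to 0.0637% of IP counts. Each share was lower in the IP in 4 of 4 animals (exact sign-flip test over pairs, p = 0.125, the smallest that 4 pairs allow). Protein-coding genes took 76.5% ± 1.21 (SD, n = 4) of annotated counts in input and 95.9% ± 0.710 in IP.

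**Figure D1:**
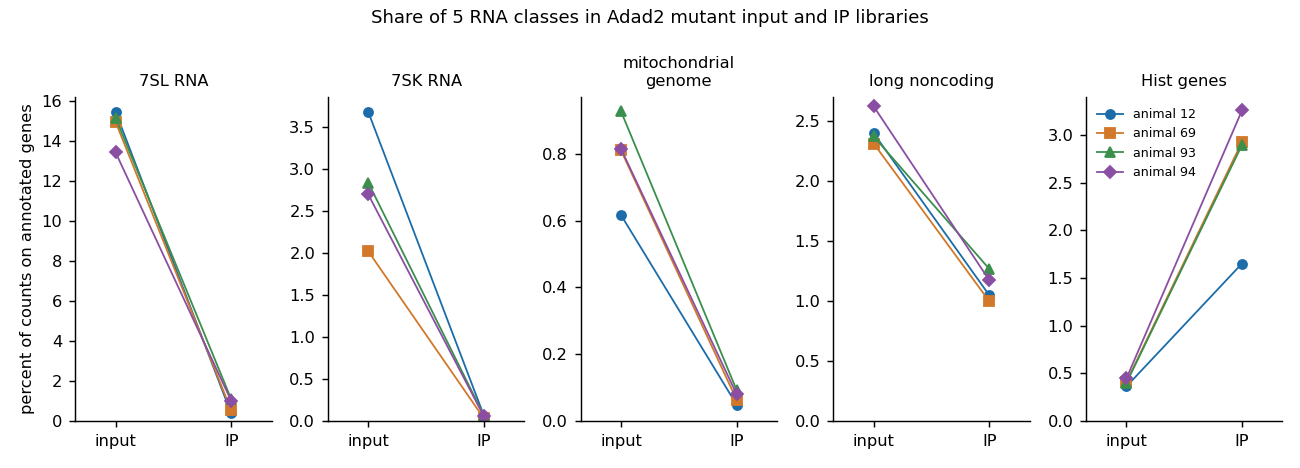
Percent of the counts on annotated genes taken by 7SL RNA, 7SK RNA, the mitochondrial genome, long noncoding RNA and Hist genes, each axis starting at 0. Points are single libraries and lines join the input and the IP of a mutant animal. The first 4 classes are lower in the IP in all 4 animals, and Hist genes take 0.361% to 0.445% of input and 1.65% to 3.26% of IP.

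By gene, Rn7sk (the 7SK gene, chromosome 9, 78175303 to 78175633) had the lowest ratio of all tested genes. It read 40257, 21771, 30139 and 27717 CPM in input and 594, 291, 590 and 506 CPM in IP (log2 -5.94 ± 0.12, adjusted p = 1.75e-08). Rmrp, the RNA of RNase MRP, which takes part in ribosomal RNA processing, had a log2 ratio of -5.72 ± 0.19, and Rpph1, the RNA of RNase P, which trims transfer RNA precursors, -3.79 ± 0.28. Malat1, an abundant RNA of nuclear speckles, stood at 2574 to 3485 CPM in input and 431 to 963 CPM in IP (log2 -2.20 ± 0.14), and Neat1, the scaffold of paraspeckles, at 34.7 to 60.9 and 4.79 to 15.1 CPM (log2 -2.52 ± 0.47). Rn7s1 and Rn7s2, the pair of 7SL genes, share reads and had been given equal counts, so that their common log2 ratio of -4.61 ± 0.39 is 1 measurement. Of the other cytoplasmic noncoding RNAs listed, Snhg1 (log2 -1.5 ± 0.83) and Snhg6 (log2 -0.99 ± 0.87), hosts of small nucleolar RNAs, were tested and not called, although Snhg6 was lower without animals 12 and 69 (log2 -2.54, edgeR adjusted p = 0.0271), and Gas5, another such host, did not pass the filter at 32.3 to 48.4 CPM in input and 0.380 to 12.3 CPM in IP.

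Of 20 structural and nuclear noncoding RNAs listed, 9 could be tested, and 7 were lower in IP and 0 higher. Of 208 long noncoding genes tested, 99 were lower and 5 higher, with a median log2 ratio of -1.31, whereas 8403 protein-coding genes had a median of 0.02 with 1751 higher and 1630 lower. Pseudogenes, which can take reads from their parent genes, had a pooled median of -0.01 over 141 tested, but their kinds differed. The median was 0.30 for 97 processed and -0.02 for 20 transcribed processed pseudogenes. It was -1.37 for 11 unprocessed and -1.07 for 12 transcribed unprocessed ones. All 8 tested genes of the mitochondrial genome, whose messages are translated inside mitochondria, were lower in IP, with a median of -3.05. mt-Co1, a cytochrome oxidase subunit, read 4596, 5570, 6660 and 5724 CPM in input and 256, 244, 381 and 336 CPM in IP (log2 -4.23 ± 0.10). The smallest gap between the fractions was found for mt-Nd6 (log2 -2.21) and mt-Nd5 (log2 -2.25 ± 0.16), subunits of complex I.

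Markers of the somatic cells of the testis were low in the IP without exception among those tested. Only 14 of 83 listed somatic markers passed the count filter, and 50 of the others had 10 or more counts in all 4 inputs but not in all 4 IPs. All 14 were lower in IP, but a gene reaches the test only if its IP counts are not too low, so the summed level of all listed markers is the fuller measure. That sum was 4817, 5054, 5640 and 5733 CPM in the inputs and 447, 517, 747 and 644 CPM in the IPs, a mean ratio of 9.02-fold.

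The summed Sertoli markers were 8.19-fold lower in IP than in input, the Leydig markers 7.33-fold, the peritubular myoid and stromal markers 9.33-fold, the vessel and red blood cell markers 17.0-fold and the macrophage markers 20.8-fold. The macrophage sum in IP was 10, 2.51, 28.3 and 11.4 CPM in animals 12, 69, 93 and 94, and without animal 93 the ratio was 33.9-fold. Among Sertoli genes, Aard read 127, 165, 237 and 254 CPM in input and 9.58, 4.03, 9.40 and 20.2 CPM in IP (log2 -4.33 ± 0.33, adjusted p = 3.68e-05). Kitl, the ligand of the KIT receptor of spermatogonia, had a log2 ratio of -3.80 ± 0.36, and Ctsl, a lysosomal protease of Sertoli cells, of -1.63 ± 0.13. The defining Sertoli markers Sox9, Amh, Gata4 and Wt1 did not pass the filter.

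Hsd3b6, a steroid dehydrogenase of Leydig cells, stood at 67.4 to 149 CPM in input and 6.79 to 23.3 CPM in IP (log2 -3.07 ± 0.34), and Scarb1, the receptor that takes up cholesterol from lipoproteins, at a log2 ratio of -1.64 ± 0.30. Dcn, a proteoglycan of connective tissue, read 76.0, 104, 138 and 111 CPM in input and 3.37, 6.38, 4.68 and 3.77 CPM in IP (log2 -4.57 ± 0.29). Col1a1, a fibrillar collagen, had 9.20 CPM in the IP of animal 12 and 42.3 to 71.5 CPM in the other IPs, against 273 to 360 CPM in input. Hbb-bs, an adult beta-globin gene, fell from 101 to 347 CPM in input to 5.28 to 11.4 CPM in IP (log2 -4.38 ± 0.30). The macrophage markers Lyz2, Cd68, C1qc, Mrc1, Cd74 and Tyrobp had 0 counts in all 4 IPs, and no member of that list passed the filter.

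**Figure D2:**
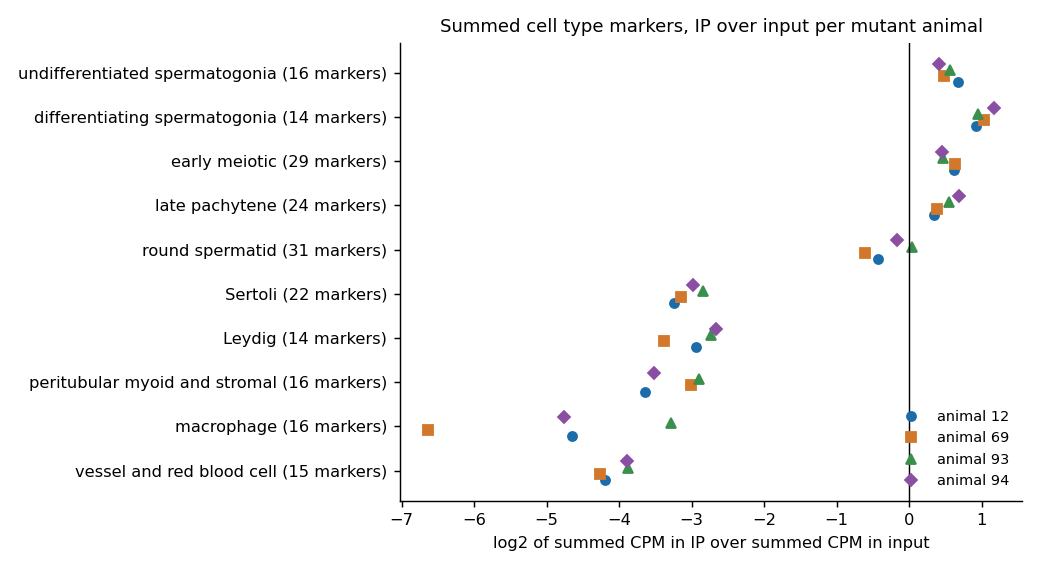
Log2 of the summed CPM of each marker list in IP over that in input, on the horizontal axis, for 10 cell types; points are the 4 mutant animals and the number of markers summed is given with each name. All 4 animals lie below 0 for the 5 somatic lists and above 0 for spermatogonia, early meiotic and late pachytene markers. A sum weighs abundant genes most, such as Hspa2 in the late pachytene list, with a mean of 1132 CPM in input and 2924 in IP. Of the 24 late pachytene markers, 7 were higher in IP and 9 lower.

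Germ cell markers were spread by stage. Differentiating spermatogonia, where Stra8-iCre becomes active, had the highest list median, 1.98 over 12 of 14 markers, with 10 higher and 1 lower. Stra8, the retinoic acid-induced gene whose promoter drives the Cre, lies on chromosome 6 at 34920163 to 34939344. It read 5.33, 30.9, 35.3 and 33.4 CPM in input and 88.0, 238, 164 and 148 CPM in IP (log2 2.81 ± 0.33, adjusted p = 0.000275), without overlap. Kit, the receptor tyrosine kinase of differentiating spermatogonia, stood at 3.61 to 27.6 CPM in input and 66.2 to 86.7 CPM in IP (log2 2.60 ± 0.46). Crabp1, a retinoic acid-binding protein gene, was at 3.13 ± 0.29, and Prss50, a testis serine protease gene, at 2.70 ± 0.23. Dmrtb1, which controls the passage from mitosis to meiosis, was the exception, with 202 to 351 CPM in input and 61.8 to 187 CPM in IP (log2 -1.18 ± 0.35, edgeR adjusted p = 0.032, and 0.122 without animal 93).

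Undifferentiated spermatogonia were covered by 6 of 16 markers, of which 1 was higher and 1 lower. Zbtb16, a transcription factor of stem and progenitor spermatogonia, was higher (log2 1.6 ± 0.39), although the IP of animal 12, at 22.4 CPM, lay within the input range of 17.9 to 27.2 CPM and the edgeR adjusted p was 0.0602 without animal 94. Etv5, which is expressed in Sertoli cells as well as in spermatogonia, was lower at 26.4, 49.1, 32 and 41.4 CPM in input and 6.96, 6.74, 10.1 and 8.67 CPM in IP (log2 -2.17 ± 0.40). Without animals 12 and 69, 12 of the markers were tested, with 4 higher and 1 lower.

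Early meiotic genes were mostly higher in IP, with 15 of 25 tested higher, 2 lower and a median log2 ratio of 1.06. Sycp3, a component of the lateral element of the synaptonemal complex, read 234, 178, 260 and 301 CPM in input and 628, 692, 684 and 635 CPM in IP (log2 1.46 ± 0.15, adjusted p = 0.000125). Dmc1, the meiotic recombinase, was at 36.2 to 49.1 CPM in input and 97.5 to 121 CPM in IP (log2 1.33 ± 0.20). Hormad1, a HORMA domain protein of unsynapsed axes, had a log2 ratio of 1.29 ± 0.10, and Spata22, a partner of the single-strand binding protein MEIOB, 1.63 ± 0.23.

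The 2 early meiotic genes that were lower were Sycp2 and Mlh3. Sycp2, whose product pairs with SYCP3 in the axis, read 254, 65.7, 179 and 195 CPM in input and 47.4, 31.2, 12.3 and 46.0 CPM in IP (log2 -2.35 ± 0.43, adjusted p = 0.00425). The fractions of Sycp2 did not overlap, and its ratio had the opposite sign to that of Sycp3. Mlh3, a mismatch repair protein needed for crossovers, was at -1.41 ± 0.25, with the IP of animal 12 at 78.2 CPM against 63.4 to 144 CPM in input.

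Late pachytene markers were split in both directions. All 24 were tested, 7 were higher in IP and 9 lower, and the median log2 ratio was -0.05 (0.10 in limma on log2(TPM + 1) after centring). Piwil1, the PIWI protein of pachytene piRNAs on chromosome 5 (128702524 to 128755474), read 447, 286, 454 and 404 CPM in input and 1982, 2161, 1855 and 2021 CPM in IP (log2 2.35 ± 0.15, adjusted p = 1.62e-05). Hist1h1t, the testis linker histone, was at 354 to 444 CPM in input and 1417 to 1970 CPM in IP (log2 2.10 ± 0.10). Hspa2, a chaperone of spermatocytes, and Pdha2, the testis subunit of pyruvate dehydrogenase, each had a log2 ratio of 1.37, with SEs of 0.09 and 0.11.

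On the low side stood Crisp2, a cysteine-rich secretory protein of the acrosome and sperm tail (chromosome 17, 40764020 to 40807003). It read 818, 747, 641 and 486 CPM in input and 36.9, 15.8, 44.0 and 17.5 CPM in IP (log2 -4.67 ± 0.29, adjusted p = 3.18e-05). Adam3, a sperm surface protein needed for passage into the oviduct, was at 330 to 583 CPM in input and 38.6 to 78.1 CPM in IP (log2 -2.95 ± 0.14). Adam5, a related sperm surface gene, had a log2 ratio of -2.87 ± 0.14, and Zpbp, an acrosomal zona pellucida-binding protein gene, of -1.64 ± 0.31. Ldhc, the germ cell lactate dehydrogenase, had overlapping fractions of 859 to 1453 CPM in input and 1122 to 1457 CPM in IP (log2 0.23 ± 0.12, edgeR adjusted p = 0.162). Without animal 12 its log2 ratio was 0.40 (edgeR adjusted p = 0.0124) and without animals 12 and 69 it was 0.52 (edgeR adjusted p = 0.00252).

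Pgk2, the autosomal phosphoglycerate kinase retrogene whose message is stored in spermatocytes before its use in spermatids, read 169, 99.2, 82.2 and 70.7 CPM in input and 23.9, 26.6, 4.83 and 1.13 CPM in IP (log2 -3.60 ± 0.69, adjusted p = 0.0071). The fractions were apart in every animal, but the log2 ratio ranged widely among animals and the edgeR adjusted p was 0.075 without animal 93. Acr, the acrosin gene, also listed as stored, was at 0.65 ± 0.26 and was not called by edgeR (adjusted p = 0.0749) but was by DESeq2 (adjusted p = 0.0396) and by edgeR without animal 69 (log2 0.92, adjusted p = 0.0209).

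**Figure D3:**
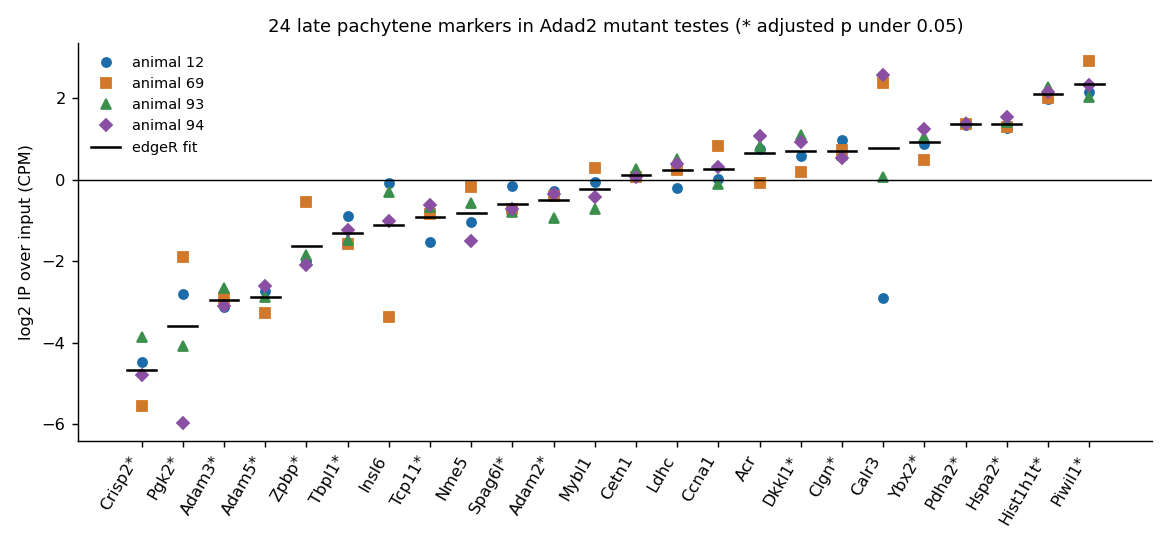
Log2 IP over input, on the vertical axis, of the 24 late pachytene markers in order of their ratio. Points are the 4 mutant animals, the bar is the edgeR fit and an asterisk marks an adjusted p under 0.05. Crisp2 at -4.67 and Piwil1 at 2.35 are the ends of the range, and the points of single animals lie close together for both the highest 4 genes and for Adam3 and Adam5.

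Most messages of round spermatids could not be tested. Of 31 markers 6 passed the filter, with 1 higher, 1 lower and a median log2 ratio of -0.23, whereas 11 had 10 or more counts in all 4 inputs but not in all 4 IPs and 13 fell short in both fractions. With edgeR's own filter, which lets in genes that are low in the IP alone, 26 were tested, 1 was higher, 1 lower and the median was -2.85, beside -0.88 over all genes in that fit. Of the 20318 genes in that fit, 1512 were higher and 1134 lower. Cyct, the testis cytochrome c, was at 102.2 to 154 CPM in input and 191 to 314 CPM in IP (log2 0.96 ± 0.17), and Crem, the transcription factor of spermatid genes, at 88.2 to 146 and 57.8 to 79.6 CPM (log2 -0.72 ± 0.22). The call of Crem was lost without animal 12, 69 or 94 (edgeR adjusted p = 0.0516 to 0.0988). The protamine genes Prm1 and Prm2 and the transition protein genes Tnp1 and Tnp2 had 0 counts in all 4 IPs and at most 1.6 CPM in any input. Akap4, a protein of the sperm fibrous sheath, had 10.2 to 39.1 CPM in input and 0 counts in all 4 IPs.

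Replication-dependent histone genes were the group most uniformly high in the IP. Most of their messages are made in S phase and end in a stem-loop in place of a poly(A) tail, although the testis variants Hist1h1t and Hist1h2ba, which are made in germ cells, are counted with them. The libraries were depleted of ribosomal RNA and not selected for poly(A), a preparation that does not exclude messages without a tail. Whether the reads came from such messages was not tested. Of 50 such genes tested, 48 were higher, 0 were lower and the median log2 ratio was 2.49, beside -0.01 over all genes and 20.4% higher. The IPs all lay above the inputs for 46 of the 50, as they did for 20.3% of all tested genes. In sum they took 3945, 4386, 4230 and 4578 CPM of the inputs and 15353, 27810, 27054 and 30269 CPM of the IPs, and the IP of animal 12 held the least. Without animals 12 and 69, 55 of 61 tested histone genes were higher and 0 lower.

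The stem-loop was searched in the most abundant annotated transcript of each gene as GGNNNTTTNNANNNCC on the transcript strand, with the 3 letters of the left arm complementary to those of the right. It lay behind the coding sequence in 34 of 50 histone genes and in 38 of 7228 protein-coding genes with a coding model (0.53%). Of the 16 histone genes without it, 12 have models that end within 3 bases of the coding end, so that the tail is not in the model. An example of each spelling among the histone genes is shown here with its flanks, read 5′ to 3′ from the GENCODE M21 transcripts (GRCm38), with the stem-loop in capitals, since it is the element that sets these messages apart.
Hist1h3b, chr13:23752820-23752835, plus strand: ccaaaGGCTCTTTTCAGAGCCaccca
Hist1h1t, chr13:23696525-23696540, plus strand: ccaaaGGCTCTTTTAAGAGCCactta
Hist1h4c, chr13:23698089-23698104, minus strand: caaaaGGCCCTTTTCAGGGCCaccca
Hist1h4i, chr13:22040966-22040981, minus strand: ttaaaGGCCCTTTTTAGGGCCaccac
Hist1h4j, chr13:21735437-21735452, plus strand: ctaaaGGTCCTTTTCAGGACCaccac

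The first spelling was found in 17 histone genes with a median log2 ratio of 2.66, the second in 6 (2.28), the third in 7 (2.37), the fourth in 2 (1.49) and the last in 2 (2.50). The fourth stood in Hist1h4i, at 3.25, and in Hist2h4, at -0.27 and not called. Histone genes with and without a stem-loop in their model had medians of 2.49 and 2.54. Beyond the histone genes named Hist, the same letters stood behind the coding sequence of 4 tested genes. These were H2afx, the histone variant that marks DNA breaks and the XY body, and D10Wsu102e, Ttc14 and Paqr9. The H2afx message read 46.8, 156, 113 and 140 CPM in input and 325, 1859, 1885 and 2306 CPM in IP (log2 3.63 ± 0.23, adjusted p = 3.93e-05). The other 3 were lower in IP, with log2 ratios of -2.18 for D10Wsu102e, -1.54 for Ttc14 and -1.47 for Paqr9, the last of which lost its call without any 1 animal (edgeR adjusted p = 0.0767 to 0.12).

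By protein, the median log2 ratio was 2.4 for 5 H1 genes, 3.00 for 9 H2A genes, 2.59 for 15 H2B genes, 2.69 for 8 H3 genes and 2.45 for 13 H4 genes. Hist1h3h, on chromosome 13 at 21717659 to 21718069, read 10.5, 5.78, 10.7 and 19.9 CPM in input and 135, 218, 209 and 328 CPM in IP (adjusted p = 1.79e-05). Hist1h1a, a somatic-type linker histone, was among the most abundant, at 479 to 569 CPM in input and 2737 to 4276 CPM in IP (log2 2.84 ± 0.14). Hist1h4m, an H4 gene, rose from 95.1 to 159 CPM to 609 to 1785 CPM (log2 3.31 ± 0.17). Histone genes of a class are nearly identical in sequence, so that reads may be split among copies and single genes are less certain than the class.

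The 2 histone genes that were not called were Hist2h4 (log2 -0.27 ± 0.70) and Hist1h3i (log2 0.59 ± 1.06), each below 20 CPM in every library. Without animals 12 and 69 the log2 ratio of Hist2h4 was 0.75 and that of Hist1h3i was 2.14, called by edgeR (adjusted p = 0.032). Replacement histones, which are made throughout the cell cycle from ordinary messages with poly(A) tails, had a median of 0.90 over 10 genes, with 6 higher and 0 lower. H3f3b, a gene of H3.3, read 1228, 961, 1181 and 1373 CPM in input and 2368, 2267, 2505 and 2429 CPM in IP (log2 1.02 ± 0.09, adjusted p = 8.21e-05). The 4 that were not called, H2afj (log2 -0.88), H2afy2, H1f0 and H2afy, had overlapping fractions. The difference between replacement and replication-dependent genes was not tested.

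**Figure D4:**
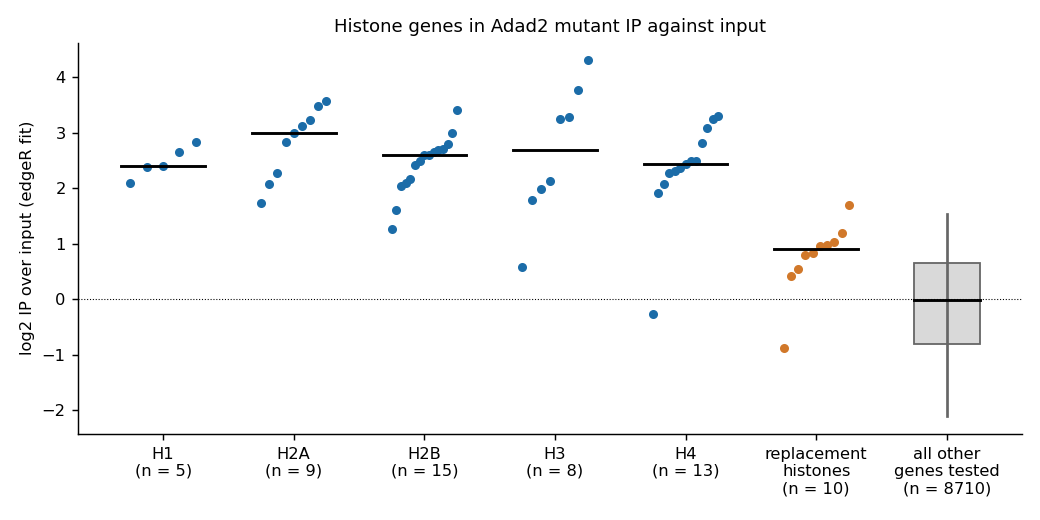
Log2 IP over input of replication-dependent histone genes by protein, of 10 replacement histone genes and of all other tested genes. Points are genes and black bars medians, and for the 8710 other genes the box spans the quartiles and the line the 5th to 95th percentile. Hist2h4 at -0.27 is the sole point of the 5 histone groups below 0.

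Ribosomal protein messages were moderately higher in the IP. Their 5′ ends carry a terminal oligopyrimidine (TOP) tract through which growth signals control their translation. Of 47 large subunit genes tested, 25 were higher and 3 lower with a median log2 ratio of 0.58, and of 29 small subunit genes 18 were higher and 1 lower with a median of 0.67. Rpl22, the gene that carries the tag, read 102.01, 76.2, 113 and 120 CPM in input and 145, 127, 139 and 163 CPM in IP (log2 0.50 ± 0.17, edgeR adjusted p = 0.0392, and 0.0653 to 0.113 when any 1 animal was left out). Rpl19, a large subunit protein, had a log2 ratio of 1.5 ± 0.13 and Rps18, a small subunit protein, of 1.3 ± 0.17. Rpl10l, the autosomal retrogene that serves in place of X-linked Rpl10 in meiosis, was at 89.7 to 179 CPM in input and 239 to 298 CPM in IP (log2 1.20 ± 0.17).

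The 4 ribosomal protein genes that were lower were Rpl41, Rplp0, Rplp1 and Rps7. Rplp0, the base of the ribosomal stalk, read 894, 792, 779 and 846 CPM in input and 248, 265, 289 and 313 CPM in IP (log2 -1.57 ± 0.12, adjusted p = 2.66e-05). Rpl41, which encodes the shortest ribosomal protein, was at 193 to 356 CPM in input and 59.7 to 76.1 CPM in IP (log2 -1.76 ± 0.19). Rplp1, at -0.62 ± 0.20, and Rps7, at -0.80 ± 0.17, had overlapping ranges, and Rplp1 lost its call without animal 12 (edgeR adjusted p = 0.117) or animal 69 (adjusted p = 0.111). Reads of these genes can also fall on their many pseudogenes, and the part of that in the values was not tested.

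Other TOP messages gave 6 higher and 2 lower of 15, with a median of 0.33. Nap1l1, a histone chaperone gene, read 89.6, 178, 190 and 175 CPM in input and 523, 515, 505 and 526 CPM in IP (log2 1.76 ± 0.19), and Eef1d, a subunit of elongation factor eEF1B, had a log2 ratio of 1.19 ± 0.15. Pabpc1, the cytoplasmic poly(A)-binding protein, was at 436 to 715 CPM in input and 156 to 314 CPM in IP (log2 -1.30 ± 0.17), and Tpt1, the translationally controlled tumour protein, at -0.79 ± 0.17.

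Of messages with a known brake on their translation, 1 of 10 tested was higher and 3 were lower, near the shares of 20.4% and 20.2% over all genes, and the median log2 ratio was -0.35. Odc1, the first enzyme of polyamine synthesis, whose 5′ leader limits its translation, read 389, 391, 358 and 368 CPM in input and 113, 88.3, 94.3 and 90.6 CPM in IP (log2 -1.97 ± 0.14, adjusted p = 2.06e-05). Amd1, the next enzyme of the pathway, whose upstream reading frame responds to polyamines, was at 186 to 213 CPM in input and 33.8 to 93.4 CPM in IP (log2 -1.81 ± 0.24). Atf4, the stress-response transcription factor with upstream reading frames, had a log2 ratio of -1.62 ± 0.53 and lost its call without animal 69, 93 or 94 (edgeR adjusted p = 0.077 to 0.0988). Oaz1, the antizyme that degrades the ODC1 protein and is made through a frameshift, was on the other side at 0.53 ± 0.17 (107 to 156 CPM in input and 178 to 196 CPM in IP), and lost its call without animal 93 or 94 (edgeR adjusted p = 0.143 and 0.128).

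ADAD2 is described in the paper as lying in granules of spermatocytes, without mention of the piRNA pathway. Genes of germ granules and the piRNA pathway were largely higher, with 13 of 20 tested higher, 1 lower and a median log2 ratio of 0.61. Gpat2, a mitochondrial acyltransferase-like protein of piRNA biogenesis, read 41.5, 47.4, 37.0 and 46.6 CPM in input and 191, 272, 265 and 283 CPM in IP (log2 2.54 ± 0.18, adjusted p = 2.06e-05). Mov10l1, the helicase that feeds piRNA precursors to PIWI proteins, had a log2 ratio of 1.52 ± 0.10, and Piwil2, the partner of PIWIL1, of 1.33 ± 0.10. Mael, a nuage protein, was the member that was lower, at 577 to 710 CPM in input and 301 to 376 CPM in IP (log2 -0.88 ± 0.10). Adad1, the paralogue of Adad2, was at 124 to 204 CPM in input and 44.4 to 128 CPM in IP (log2 -0.64 ± 0.36, adjusted p = 0.197).

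Germ cell regulators of translation and poly(A) length were split, with 11 of 24 tested higher and 7 lower and a median of 0.37. Khdrbs1 (SAM68), an RNA-binding protein of spermatocytes, had a log2 ratio of 1.4 ± 0.12. Dazl, which binds 3′ untranslated regions (UTRs) of germ cell messages, was at 482 to 591 CPM in input and 908 to 1250 CPM in IP (log2 1.04 ± 0.12), and Ybx2, a Y-box protein of stored messages, at 402 to 681 and 823 to 1064 CPM (log2 0.92 ± 0.13). Papolb, the testis cytoplasmic poly(A) polymerase on chromosome 5 (142525838 to 142530076), read 272, 222, 194 and 158 CPM in input and 17.6, 35, 6.00 and 11 CPM in IP (log2 -3.86 ± 0.37, adjusted p = 0.000138). Cpeb4, a cytoplasmic polyadenylation element-binding protein gene, was also low, at 43.6 to 64.2 CPM in input and 2.75 to 18.2 CPM in IP (log2 -2.83 ± 0.51), whereas its relative Cpeb1 was high (log2 1.26 ± 0.36). The remaining 5 that were lower were Msi2, Ybx3, Pabpc1, Pum2 and Ybx1. Cpeb1 lost its call without animal 93 or 94, Msi2 without 69 or 94 and Ybx3 without 69 or 93 (edgeR adjusted p = 0.0557 to 0.119).

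Factors of the XY body and of the DNA damage response had 11 of 19 tested members higher and 2 lower, with a median log2 ratio of 0.78. Mdc1, the adaptor that spreads the damage signal over the sex chromosomes, lies on chromosome 17 at 35841515 to 35859670. It read 312, 346, 369 and 382 CPM in input and 741, 678, 699 and 865 CPM in IP (log2 1.08 ± 0.11, adjusted p = 0.00012). The wild-type log2 ratio of Mdc1 was 0.93, and the mutant minus wild-type difference was 0.19 (unadjusted p = 0.19). Chek1, a checkpoint kinase gene, and Rnf8, the ubiquitin ligase recruited by MDC1, had log2 ratios of 2.30 ± 0.57 and 2.27 ± 0.41, at levels below 30 CPM for Chek1. Hus1, a clamp subunit, was lower at -1.28 ± 0.45, as was Atr, a damage-signalling kinase gene, at -0.40. Hus1 and Atr lost their calls without animal 12, 93 or 94 and Chek1 without 94 (edgeR adjusted p = 0.0517 to 0.204).

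M phase genes had 14 of 24 tested members higher and 0 lower, with a median of 0.81. Bub1b, a spindle checkpoint kinase gene, read 80.4, 46.6, 41.1 and 72.5 CPM in input and 338, 276, 150 and 226 CPM in IP (log2 2.03 ± 0.19, adjusted p = 9.01e-05). Ndc80, a kinetochore protein gene, had a log2 ratio of 1.36 ± 0.17, Top2a, the topoisomerase of condensing chromosomes, of 1.02 ± 0.12 and Ccnb1, the mitotic cyclin, of 0.99 ± 0.20.

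Properties of the transcript that the choice of genes had not used went with the ratio. The 7228 protein-coding genes with a coding model were cut into quintiles by each property of their most abundant transcript. By GC content, the median log2 ratio went from -0.40 in the lowest quintile (median GC content 42.8%) through -0.08, -0.03 and 0.27 to 0.39 in the highest (58.3%). In the lowest 13.2% of genes were higher and 32.6% lower, and in the highest 29.7% and 10.3%. The span was wider in animals 93 (-0.46 to 0.52) and 94 (-0.44 to 0.55) than in animals 12 (-0.25 to 0.21) and 69 (-0.25 to 0.21).

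By the length behind the coding sequence, stop codon included, the quintile with the longest 3′ UTRs (median 2363 bases) had a median log2 ratio of -0.48, and the other 4 lay between 0.05 and 0.25. Within the genes of the lowest, middle and highest GC content, each a tertile, the quintile with the shortest length (median 3, 3 and 12 bases, so that most of its models end at or near the stop codon and hold no annotated tail) and the quintile with the longest had medians of -0.18 and -0.71, 0.04 and -0.35, and 0.41 and -0.14. The longest 5′ UTRs (median 372 bases) had a median of -0.23 and the shortest (11 bases) of 0.11. Coding length made little difference, with quintile medians between -0.02 and 0.11. Whether these trends reflect the messages, or the recovery of fragments by GC content and length in the 2 kinds of library, was not tested, and genes are not independent replicates. In quintiles of mean log2 CPM, the same genes had medians of -0.18, -0.21, 0.04, 0.13 and 0.27 from lowest to highest. The share higher in IP was 5.81% in the lowest and 42.2% in the highest, and the share lower 10.6% and 22.3%. The share of 20.4% higher over all tested genes takes no account of level.

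**Figure D5:**
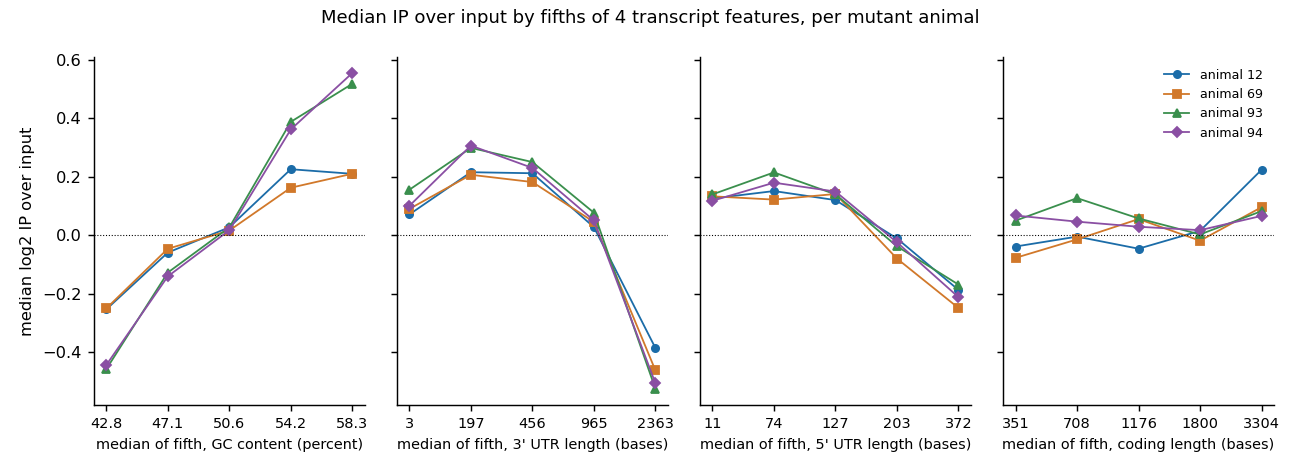
Median log2 IP over input of protein-coding genes in quintiles of GC content, 3′ UTR length, 5′ UTR length and coding length, with the median of each quintile on the horizontal axis. Lines are the 4 mutant animals, and in each of them the ratio is lowest in the quintile of lowest GC content and in the quintile of 2363 bases.

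The ratios of the mutants were set against those of the wild type. The libraries of the genotypes differed in the annotated genes above 0. Wild-type IPs held 19668 to 21894 and mutant IPs 12748 to 15032. Wild-type inputs held 25332 to 27816 and mutant inputs 15446 to 27021. The bearing of this on the genotype differences was not tested. Over the 8730 genes with 10 or more counts in all 14 libraries, the interaction of fraction and genotype was past an adjusted p of 0.05 in edgeR for 0 genes, while at an unadjusted p under 0.05 the mutant ratio was higher for 141 genes (1.62%) and lower for 126 (1.44%). DESeq2 called 1 gene. Of 3553 genes called in the mutants and present in that set, 3541 had the same sign in wild type, and mutant and wild-type log2 ratios correlated across genes by 0.907 (Pearson), a description since genes are not independent.

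Gene by gene, the median mutant minus wild-type difference of the log2 ratios was 0.02 over all genes. It was 0.07 for 49 replication-dependent histones, 0.14 for differentiating spermatogonia, 0.10 for early meiotic genes, -0.06 for late pachytene genes, 0.22 for ribosomal proteins, 0.10 for germ granule genes and 0.23 for M phase genes. The list medians themselves, mutant first and wild type second, were 2.49 and 2.56 for histones, 1.06 and 0.67 for early meiotic genes and 0.61 and 0.73 for germ granule genes, so that for these lists the gap between the medians differs in size or sign from the median difference. For the 13 somatic markers the median difference was -0.48, with medians of -3.47 and -2.58, and 3 of these 13 were past an unadjusted p of 0.05, all lower in the mutants. Clu was among them at -5.25 in mutants and -3.19 in wild type (difference -2.01, unadjusted p = 0.024, adjusted p = 0.997). The smallest unadjusted p of all genes belonged to Col4a1, at -5.09 in mutants and -2.46 ± 0.42 (SE) in wild type, with a difference of -2.58 ± 0.53 (unadjusted p = 0.00078, adjusted p = 0.997). Bub1b differed by 0.83 ± 0.22 (unadjusted p = 0.0043, adjusted p = 0.997).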

How the data were processed

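Total RNA and anti-HA immunoprecipitated RNA of 4 Adad2 mutant animals were compared by the animal number in the sample titles, which marks the same mouse in both fractions. Per the study's methods, libraries were stranded and depleted of ribosomal RNA, remaining ribosomal reads were removed with Bowtie2, and reads were trimmed with Trimmomatic. The authors quantified them with RSEM 1.3.3 on GRCm38 transcripts plus assembled testis transcripts and deposited expected counts, not normalized, and TPM values, scaled over all entries of a library. Expected counts of Ensembl transcripts were summed to GENCODE M21 genes and rounded. Spike-ins, assembled transcripts (13.3% to 16.3% of mutant counts) and transcripts without a match (0.160% to 0.290%) were left out. The assembled entries include isoforms, so counts given to isoforms of annotated genes are missing from the gene sums. The effect of this on the ratios was not tested.

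Genes with 10 or more counts in all 8 libraries were tested with edgeR 4.0.16 (TMM, robust quasi-likelihood, animal as block, Benjamini-Hochberg adjusted p under 0.05, R 4.3.3), after a run on simulated data. The correlation of residuals between the 2 fractions of an animal was 0.0688, 0.0123, 0.0124 and 0.119, against -0.0911 to 0.0747 between animals, and for animals 69 and 93 another animal's input correlated more than their own, so that the pairing rests on the labels. The genotype comparison used all 14 libraries with the same settings. DESeq2 1.42.0 and limma 3.58.1 on log2 TPM were alternatives. Levels are CPM, ratios are IP over input on the log2 scale with their SE, and lists are described by counts and medians. Sequences and coding models came from GENCODE M21. Figures were drawn with matplotlib 3.10.9 in Python 3.11.15.

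The 25 gene lists, the rule for named genes and the comparison itself were chosen with earlier results of these data known, and 1 list member is not reported here. The rule took the anchor genes and the 3 smallest p of each list, up to 12 protein-coding genes per direction by ratio (log2 CPM of at least 5), up to 6 of other biotypes (at least 4), and Adad2, Adad1, Mdc1, Rpl22 and Stra8. Outside the rule, and named after their values were seen, stand the minority members of a list, the genes with a stem-loop, the replacement histones and Crabp1, Chek1, Rnf8, Neat1, Rpph1, Piwil2, Zpbp, Cpeb1, Cpeb4, Rbmx, Papola, Snhg6 and mt-Nd6, and the list members given only as untested or at 0 counts (Akap4, Prm1, Prm2, Tnp1, Tnp2, Amh, Gata4, Wt1, Mrc1, Cd68, C1qc, Cd74 and Tyrobp).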

Additional observations from a re-analysis of the deposited data

Results flagged for a closer look

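With 4 animals, 165 sets of 4 values were examined for an animal far from the other 3 by Dixon's 95% criterion, and chance flags about 1 in 20 of such sets. The test singled out 8 sets, and no explanation was weighed for any of them. For Adad1 the log2 IP over input of animal 69 was -2.20, below the others. For Mael animal 12, at -0.75, was above the others, and for Clu animal 93, at -3.45, was above the others. Animal 12 stood apart for Hist1h1a (2.27, lowest), for Nap1l1 (2.55, highest) and for the log2 ratio of the summed levels of replication-dependent histones (1.96, lowest). For Tuba3a, an alpha-tubulin gene of germ cells, animal 94 was highest at 2.15, and for Zpbp animal 69 was highest at -0.55.

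Assembled transcripts, which the paper describes as testis-specific genes and isoforms added to the Ensembl transcripts, also differed between fractions. They were not used in the comparisons. Of 1090 with 10 or more counts in all 8 libraries, 170 were higher in IP and 331 lower in edgeR at an adjusted p under 0.05. Over all 9860 entries of that fit, annotated genes included, 1980 were higher and 1950 lower. The assembled transcripts carry no gene names in the deposited tables and were not described further.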

How the results depend on the processing

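Of 109 called genes that the text names, 73 kept their call and direction under all 17 alternatives, and 18 lost the call when animals were left out. The scale had the widest effect. On uncentred TPM with 0.1 and with 1 added, limma called 5220 and 5285 genes higher and 257 and 267 lower, and 18 genes turned upwards with the shift of the median gene (1.27 and 1.17): Adad1 (1.14, 1.13), Mael (0.25, 0.25), Crem (0.92, 0.91), Scarb1 (0.015, 0.016), Hist2h4 (0.86, 0.65), Ldha (0.58, 0.57), Atr (0.70, 0.70), Hus1 (1.10, 0.99), Pum2 (0.87, 0.85), Rplp1 (0.49, 0.49), Rps7 (0.36, 0.35), Tpt1 (0.37, 0.37), Ttc14 (0.44, 0.41), Ybx1 (0.10, 0.10), Papola (1.11, 1.09), Snhg1 (0.46, 0.48), Snhg6 (0.21, 0.20) and H2afj (0.57, 0.48). The following list medians are relative to the median of the 8770 genes in each fit, and their causes were not tested. With 0.1 added they were 0.37 for undifferentiated spermatogonia, 0.63 for early meiotic genes, 0.17 for other TOP messages, -3.06 for structural and nuclear noncoding RNA, 0.39 for germ granule and 0.72 for M phase genes. With 1 added, also after the centring that was chosen after seeing the data, they were 0.086 for undifferentiated spermatogonia, 0.71 for early meiotic, 0.10 for late pachytene (turned), -2.92 for Sertoli, -2.92 for myoid and stromal, -2.91 for structural noncoding RNA and 0.71 for M phase, and Adad2 was at -0.20 after centring. Adad2 was at -0.0002 with upper-quartile factors. An adjusted p under 0.01 left 1093 genes higher and 1024 lower.

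With filterByExpr and with no filter, which test more genes, 1134 and 1008 genes were lower, and medians were 1.09 and 0.83 for undifferentiated spermatogonia, 0.67 in both for early meiotic, -2.94 in both for round spermatid, -5.25 and -4.99 for Sertoli, -4.23 and -3.90 for Leydig, -4.73 and -4.72 for myoid and stromal, 0.22 in both for other TOP, -0.60 in both for translational control, -4.58 and -4.57 for cytoplasmic noncoding RNA, 0.45 and 0.35 for germ cell isoforms and -0.26 in both for somatic counterparts. The mitochondrial genome was at -3.76 with no filter. The 50-count minimum gave -2.52 for structural and -4.61 for cytoplasmic noncoding RNA. For the genotype difference filterByExpr called 3 genes lower, DESeq2 1 and the fit without animals 12 and 69 1. Without those animals medians were 1.71 for undifferentiated and 1.76 for differentiating spermatogonia, 0.75 for early meiotic, -0.22 for late pachytene, -2.73 for Leydig, 0.19 for other TOP, -2.60 for cytoplasmic noncoding RNA, 0.85 for M phase and -0.50 for somatic counterparts, with Adad2 at -0.61 and Hist2h4 at 0.75, and Clu, Crem, Rpl22, Rbmx, Hus1, Paqr9, Rplp1 and Ybx3 lost their calls (edgeR adjusted p = 0.0603 to 0.354).

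Without the animal as a block, 1817 genes were higher and 1717 lower, medians were -3.07 for myoid and stromal and 0.78 for M phase, and Rpl22, Rbmx, Atr, Hus1 and Paqr9 lost their calls. The other named calls did not change with the pairing. Leaving out 1 animal gave 1251 to 1800 genes higher, 1206 to 1696 lower and 0 for the genotype difference. Medians ranged from 0.60 to 1.16 for undifferentiated spermatogonia, 0.81 to 1.08 for early meiotic, -0.18 to 0.031 for late pachytene, -4.30 to -3.69 for Sertoli, -2.62 to -1.73 for Leydig, -3.72 to -3.27 for myoid and stromal, 0.17 to 0.47 for other TOP, 0.71 to 0.85 for M phase and -0.34 to -0.0042 for somatic counterparts, and values from -0.18 to 0.42 for Adad2, -0.90 to 0.30 for Hist2h4 and -0.20 to 1.58 for Hist1h3i. Genes at 0 in any library, frequent in animals 12 and 69, were left out of the main test by its count filter. A gene missing from 1 fraction could therefore not be called there. With filterByExpr, 21 Sertoli and 16 macrophage markers were tested, and 9 and 3 of them were called lower in IP. Over all 20318 genes in that fit, 1134 were called lower. The main test held 5 Sertoli markers, all 5 called lower, and 0 macrophage markers.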

Other observations

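Genes that germ cells use in place of a somatic counterpart were described as a pair of lists. Of 15 germ cell isoforms tested, 8 were higher in IP and 2 lower, with a median log2 ratio of 0.66. Of 13 somatic counterparts, 2 were higher and 3 lower, with a median of -0.07. Over all tested genes 20.4% were higher and 20.2% lower, with a median of -0.01, so the somatic counterparts lay near all genes. Tuba3a, an alpha-tubulin gene, read 1748, 2016, 1759 and 1483 CPM in input and 6628, 7744, 6810 and 6580 CPM in IP (log2 1.99 ± 0.08, edgeR adjusted p = 1.15e-06), without overlap. Of pairs with both genes tested, Rbmxl2 stood at 3.43 ± 0.37 and its X-linked parent Rbmx at -1.71 ± 0.53, although Rbmx lost its call when any 1 animal was left out (edgeR adjusted p = 0.0517 to 0.13). Cyct, the testis cytochrome c, was at 0.96 ± 0.17 and Cycs, the form of other tissues, at -1.31 ± 0.24. Ldhc was at 0.23 ± 0.12 and Ldha, the muscle form of lactate dehydrogenase, at -0.65 ± 0.10. The germ cell form was the lower one for the poly(A) polymerases, with Papolb at -3.86 ± 0.37 and Papola at -0.46 ± 0.23 (edgeR adjusted p = 0.139). Pgk2 was at -3.60 ± 0.69, and its X-linked counterpart Pgk1 did not pass the filter, at 26.2, 31, 27.2 and 29.3 CPM in input and 7.42, 0, 11.3 and 10.1 CPM in IP. Both Hspa2 (1.37 ± 0.09) and Hspa8 (1.19 ± 0.09), the constitutive chaperone, were higher. The difference between the pair of lists was not tested.

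By chromosome, the 243 X-linked genes tested had a median log2 ratio of -0.11. Of them, 46 (18.9%) were higher and 63 (25.9%) lower, beside 20.4% and 20.2% over all tested genes. Among autosomes, chromosome 17 had the highest share of genes higher in IP (28.1% of 417) and chromosome 3 the highest share of genes lower (26.3% of 422). These are the extremes of all autosomes, and differences between chromosomes were not tested. Ddx4, the germ cell helicase VASA, did not pass the count filter. It read 374, 58.0, 74.6 and 72.6 CPM in input and 0.548, 0, 94.0 and 0 CPM in IP. Animal 93 thus had more counts on the annotated Ddx4 transcripts in IP than in input and the other 3 nearly none. Counts given to assembled transcripts could not be returned to Ddx4, so these values may not show the whole message, which was not tested.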
